A study of Mus musculus with 53 samples.

Results

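The nuclear genes that encode subunits of oxidative phosphorylation were described across all 53 libraries of an RNA-sequencing study of mouse intestine. Members were the protein-coding genes whose symbols begin with Ndufa, Ndufb, Ndufs, Ndufv, Uqcr, Cox4i, Cox5, Cox6, Cox7, Cox8 or Atp5, without the Ndufaf assembly factors and a gene not analysed here, and with a mean CPM (counts scaled to a common library size) of at least 1 over all libraries. Of 79 genes taken by these symbols, 74 met the minimum, out of 55421 genes in the table and 16640 with a mean CPM of at least 1. They comprised 33 genes of complex I, 8 of complex III, 16 of complex IV and 17 of complex V. The genes nearest the minimum were Cox4i2 (1.19 CPM) and Ndufa4l2 (1.93 CPM) inside it, and Cox8b (0.431 CPM) and Cox6a2 (0.138 CPM) outside it. Cox7b2, Cox8c and an additional identifier of Atp5o had a mean of 0. All 74 members passed the low-count filter of every comparison.

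The study compared intestinal tissue and tumours of mice in which the VilCreER transgene, a tamoxifen-inducible Cre driven in intestinal epithelium, had recombined conditional alleles. Each group, WT included, carried VilCreER+. BA mice carried BrafV600E/+ and Alk5fl/fl, where Alk5 is the TGFβ receptor Tgfbr1, and A mice carried Alk5fl/fl alone. The groups on the Mixed C57BL/6J N6 background were BA primary tumours of the proximal colon (n = 4), WT proximal colon with no day given (n = 3), and 5 proximal colon groups taken 30 days post induction (d30). The d30 groups were WT (n = 4), A (n = 4), A with sulindac at 0.4 g/L for 14 days (n = 4), BA (n = 5) and BA with antibiotics (n = 5), the latter being ampicillin, neomycin trisulphate and metronidazole at 1 g/L each with vancomycin at 500 mg/L in the drinking water. The same background held small intestine taken 4 days post induction (d4) from Apcfl/fl mice (n = 10) and WT mice (n = 6). Apcfl/+ primary tumours of the small intestine (n = 5) and their WT small intestine (n = 3) came from inbred C57BL6/J mice. The labels give no ages, and the methods of the study state that adult mice of both sexes were used and that replicates were independent animals, although the labels do not tie each library to an animal.

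Oxidative phosphorylation couples the oxidation of NADH and succinate to ATP synthesis in the inner mitochondrial membrane. Complex I takes electrons from NADH, complex III passes them from ubiquinol to cytochrome c, complex IV transfers them to oxygen, and complex V uses the resulting proton gradient to make ATP. Most subunits are encoded in the nucleus and a small set in the mitochondrial genome, and in the gut these complexes are abundant in absorptive epithelium and in smooth muscle.

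Promoter sequences are shown for the genes on which the results turn, namely Cox7a1 (the largest decreases), Ndufa4 and Ndufs4 (the increases at d30) and Atp5g2 (the increases in both Apc models). RefSeq promoters of build GRCm38.p6, from 250 bases before to 50 after the gene start and written in the sense of the gene, were matched by symbol to 59 of the 74 members. In these sequences capitals mark matches to a searched motif on either strand. The Cox7a1 promoter lies at chr7:30183921-30184220 on the + strand, that of Ndufa4 at chr6:11907401-11907700 on the - strand, that of Atp5g2 at chr15:102670998-102671297 on the - strand and that of Ndufs4 at chr13:114388045-114388344 on the - strand.
Cox7a1: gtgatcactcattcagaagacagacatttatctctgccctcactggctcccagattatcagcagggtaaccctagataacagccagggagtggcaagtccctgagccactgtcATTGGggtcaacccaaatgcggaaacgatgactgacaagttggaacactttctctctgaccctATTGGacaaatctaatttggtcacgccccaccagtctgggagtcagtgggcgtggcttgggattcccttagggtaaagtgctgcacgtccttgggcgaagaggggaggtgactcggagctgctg
Ndufa4: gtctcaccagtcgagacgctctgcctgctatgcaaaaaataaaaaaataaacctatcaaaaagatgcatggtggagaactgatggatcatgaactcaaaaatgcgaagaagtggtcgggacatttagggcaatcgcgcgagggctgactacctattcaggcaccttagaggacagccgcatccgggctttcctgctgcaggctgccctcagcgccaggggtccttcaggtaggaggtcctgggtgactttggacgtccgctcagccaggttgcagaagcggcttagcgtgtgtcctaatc
Atp5g2: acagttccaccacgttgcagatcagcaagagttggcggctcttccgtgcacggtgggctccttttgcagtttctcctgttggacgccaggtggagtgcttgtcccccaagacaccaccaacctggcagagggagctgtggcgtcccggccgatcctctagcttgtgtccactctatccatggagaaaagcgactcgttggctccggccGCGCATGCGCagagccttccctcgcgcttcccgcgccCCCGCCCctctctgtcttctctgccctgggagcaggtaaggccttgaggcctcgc
Ndufs4: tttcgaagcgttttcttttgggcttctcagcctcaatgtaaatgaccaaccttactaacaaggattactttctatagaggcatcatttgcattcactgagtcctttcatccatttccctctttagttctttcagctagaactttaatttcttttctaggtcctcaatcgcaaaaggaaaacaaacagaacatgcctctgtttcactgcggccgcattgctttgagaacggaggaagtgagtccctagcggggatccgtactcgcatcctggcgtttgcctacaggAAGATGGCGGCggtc

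The Cox7a1 window held a pair of CCAAT boxes, both on the minus strand and beginning at positions -137 and -74 relative to the gene start used by RefSeq. The Atp5g2 window held the palindromic NRF1 motif, the first run of capitals in its sequence, at -42 and an SP1 motif on the minus strand at -5. That RefSeq start lies inside the gene as GENCODE places it, downstream of its outermost start, so the window covers only 1 of the possible starts. The Ndufs4 window held a YY1 motif, the capitals in its sequence, at 35. None of the 7 searched motifs was found in the Ndufa4 window. The RefSeq starts of Cox7a1, Ndufa4 and Ndufs4 also lie downstream of their outermost GENCODE starts. Their windows include those outermost starts, and the positions given hold for the RefSeq start only.

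Over the 59 matched members, both strands were searched and each motif was counted once per promoter. The NRF1 motif was present in 8.475% of members (Atp5g2, Atp5k, Cox6a1, Ndufa11 and Uqcrc1) and in 1.073% of all 27025 promoters. The ETS motif CCGGAAG was present in 23.73% against 9.928%, and the YY1 motif in 5.085% (Ndufs4, Ndufs6 and Ndufs7) against 0.7549%. The SP1 motif GGGCGGG was found in 32.2% of members against 27.9% of all, CCAAT in 42.37% against 41.06%, the ERR motif TNAAGGTCA in 3.39% against 1.432% and TATAAA in 8.475% against 15.67%. These are matches of letters and not measured binding sites.

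Library totals ranged from 516985 counts (Apcfl/fl d4 replicate 1) to 32824795 counts, with the other 52 libraries at 10005066 or more. Levels are given as normalised CPM, the CPM scaled by trimmed mean of M values (TMM) over all libraries. Some libraries stood apart. The 74 members summed to 40437 normalised CPM in Apcfl/fl d4 replicate 8 against 13348 to 16833 in the other 9 libraries of that group, and ribosomal protein genes summed to 69204 there. In BA tumour replicate 2 the members summed to 16938 against 7442 to 10850 in the other 3 tumours, and ribosomal protein genes summed to 107790. Short transcripts stood higher in both libraries, by a median log2 deviation of 1.28 in Apcfl/fl d4 replicate 8 and 0.68 in BA tumour replicate 2 over 776 genes with transcripts under 1000 bases. Transcripts of at least 4000 bases deviated by -0.89 and -0.15. The members are mostly short, with 70.27% of them under 1000 bases against 8.091% of expressed protein-coding genes. The part of transcript length in their differences was not tested beyond length-corrected fits. Those fits are reported for both tumour types, Apcfl/fl d4 and the antibiotic comparisons. They are not reported for BA d30 against WT or A, for A against WT or for sulindac. The floxed genes gave no check of the labels, because whole-gene counts include the exons that recombination leaves. For example, Tgfbr1 ranged from 41.9 to 58.2 normalised CPM in BA d30 and from 34.7 to 65.2 in WT d30.

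**Figure D1:**
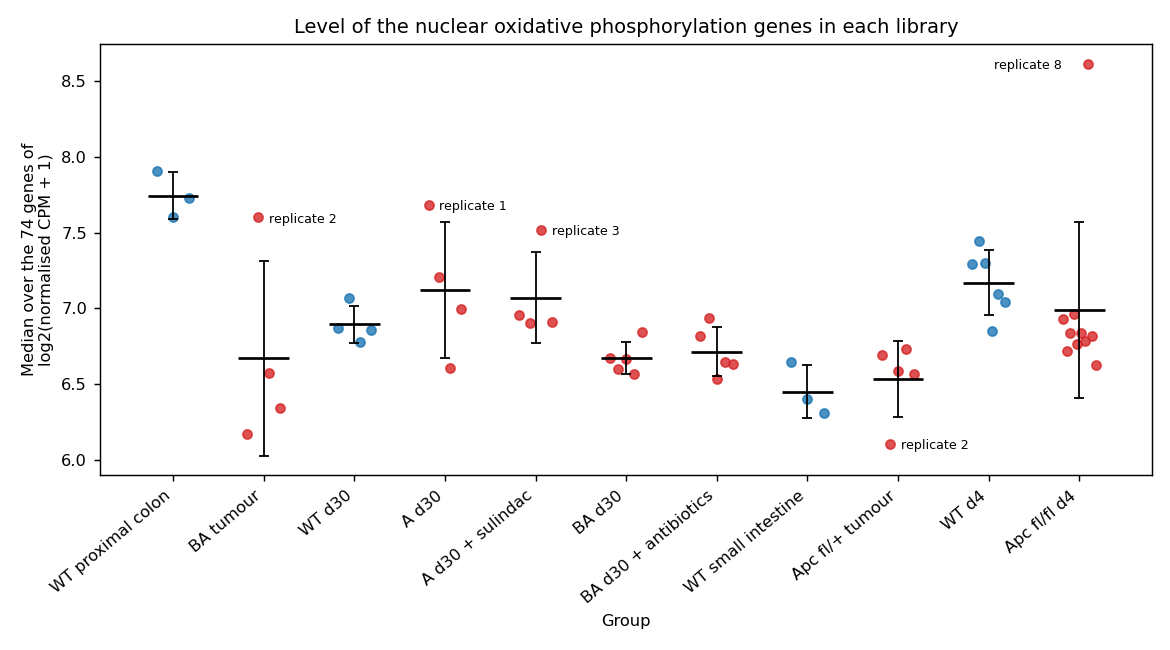
Median over the 74 genes of log2(normalised CPM + 1) in each of the 53 libraries, by group; points are libraries (WT blue, others red), horizontal bars are group means and whiskers are 1 SD. Apcfl/fl d4 replicate 8 sits at 8.613, A with sulindac replicate 3 at 7.519 and Apcfl/+ tumour replicate 2 at 6.108, apart from their groups.

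In WT d30 proximal colon the mean level per kilobase of transcript ran from 1.95 normalised CPM per kb for Cox4i2, the lung- and hypoxia-associated isoform of subunit IV, and 1.95 for Ndufa4l2, the hypoxia-inducible paralogue of Ndufa4, to 1009 for the ubiquitous isoform Cox4i1 and 1040 for Atp5b, the catalytic β subunit of ATP synthase. The same genes marked the ends in WT small intestine at d4, with 1.51 for Cox4i2 and 1499 for Atp5b. In WT proximal colon the lowest was Ndufa4l2 at 1.5 and the highest Atp5b at 1456.

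In BA tumours the respiratory genes were lower than in WT proximal colon, across all 4 complexes. Of the 74 members, 20 fell and 0 rose (edgeR quasi-likelihood test, Benjamini-Hochberg adjusted over 19188 genes), where 5.71% of all genes tested were called lower, 7.46% higher and 13.2% in either direction. The median log2 fold change of the members was -1.02, or 49.5% of the WT level, against 0.03 for all genes tested, and 73 of 74 estimates were negative. All 4 tumours lay below all 3 WT libraries for 43 members, 58.1% of the members against 12.9% of all genes, and above them for 1, against 14.6%.

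Cox7a1 (chr7:30184144-30186078, + strand, GRCm38) encodes the isoform of cytochrome c oxidase subunit 7a that is typical of heart and skeletal muscle, and it was the most reduced member. Its level was 6.05, 23.8, 5.55 and 3.04 normalised CPM in BA tumours 1 to 4 and 55.6, 75.3 and 59.4 in the WT libraries. Replicate 2 was the highest tumour and still lay below every WT library. The log2 fold change was -2.76 (SE 0.61, adjusted p = 0.0203), and it ran from -3.75 to -2.44 when each library was left out in turn, with the call kept in 4 of 7 fits.

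Among complex I genes 10 of 33 fell, with a median of -1.01. The 7 catalytic core subunits, which carry the flavin and the iron-sulphur clusters, included 5 of the calls, while 5 of the 26 accessory subunits fell. Ndufs1, the largest core subunit, stood at 89.7, 52.2, 111 and 85.3 normalised CPM in the tumours and at 172, 199 and 202 in WT, with no overlap (log2 fold change -1.20, SE 0.25, adjusted p = 0.01678). Here replicate 2, which was the highest tumour for Cox7a1, was the lowest. The accessory subunit Ndufa5 was at 19.5, 51.3, 30.8 and 22.3 against 87.6, 77.2 and 87.9 (log2 fold change -1.46, SE 0.33, adjusted p = 0.02208). Every tumour lay below every WT library for Ndufa5 too. The other complex I decreases included Ndufa10, Ndufab1, Ndufb10, Ndufs3, Ndufs5, Ndufs7 and Ndufv1, with log2 fold changes from -1.34 to -0.95.

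Complex III had 4 of 8 genes lower. All 3 core genes fell, namely the core proteins Uqcrc1 and Uqcrc2 and the Rieske iron-sulphur protein Uqcrfs1, with log2 fold changes of -1.33, -1.30 and -1.37. Uqcrc2 was at 142, 157, 207 and 171 normalised CPM in the tumours and 402, 397 and 436 in WT, so its tumour libraries varied little and were far below WT (adjusted p = 0.008768). The small ubiquinone-binding subunit Uqcrb was at 72.5, 174, 104 and 79.0 against 320, 238 and 304 (log2 fold change -1.43, SE 0.33, adjusted p = 0.02451), although 32.1% of its 36-base words occur in other genes, so its count is uncertain.

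In complex IV, 3 of 16 genes fell, Cox7a1 with the subunits Cox5a (-1.20) and Cox5b (-1.34). The only positive estimate of the 74 was that of Ndufa4l2, which was at 2.12, 3.98, 2.49 and 4.25 normalised CPM in the tumours and 2.00, 0.823 and 1.37 in WT. All tumours were above all WT libraries, but the difference did not pass the test (log2 fold change 1.16), and counts of this gene ranged from 2 to 107 reads over all libraries. In complex V, 3 of 17 genes fell, the F1 stalk subunit Atp5c1 (-1.10), the peripheral stalk subunit Atp5f1 (-1.15) and the c-ring gene Atp5g3 (-1.22).

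The number of calls in the BA tumours depended on single libraries. Without tumour replicate 2, 69 members fell (median log2 fold change -1.47). Without tumour replicates 3 or 4, 10 and 6 fell, and without WT proximal colon replicates 1 or 3, 2 and 4 fell. With a correction for transcript length per library, 51 fell, 1 rose and the median was -0.80. The shares of all genes called in these other fits are not given, so their counts of members have no background.

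Genes around the respiratory chain were read from lists in the same fit. All 4 complex II genes fell, from -1.50 for the iron-sulphur subunit Sdhb to -0.95 for Sdhd. So did 12 of 16 genes of the tricarboxylic acid cycle and pyruvate dehydrogenase (median -1.00, including Suclg1 at -1.56 and Fh1 at -1.33). The mitochondrially encoded subunits had 0 of 12 genes called, 0 at an unadjusted p under 0.05 and a median of -0.31. Of 43 assembly factors, 14 fell.

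Markers of other cells moved in the same samples. In BA tumours 7 of 8 neutrophil markers and 5 of 8 immune markers rose and 3 of 8 smooth muscle markers fell, the summed smooth muscle level being 1586 to 3305 normalised CPM in tumours and 2212 to 9093 in WT. Ly6g, among the 7, was also high in BA d30 (mean 417 normalised CPM against 0.23 in WT d30). There Il1b rose too (1.69), Mmp9 fell (-1.92) and Csf3r was not called. The general epithelial markers summed to 11429 to 17724 against 13562 to 16825, with 1 of 10 higher. Of 8 colon markers 2 fell, Car4 (log2 fold change -3.26) and Slc26a3 (-2.44), and the summed level of the 8 was 1109 to 5147 in tumours and 12176 to 24617 in WT, without overlap. Stromal markers rose in 3 of 8 cases, Col1a1, Col1a2 and Pdgfrb (1.52 to 2.11), with sums of 4710 to 5830 against 1737 to 2711. The part of cell composition in the members' levels was not tested, and in bulk tissue fewer cells of a type and less RNA per cell cannot be told apart.

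In Apcfl/+ tumours of the small intestine the respiratory genes as a group stood close to WT small intestine, while a few isoforms moved. Of 74 members 5 rose and 2 fell, where 31.4% of 20567 genes tested were called higher, 30.09% lower and 61.5% in either direction. All tumours lay above all WT libraries for 4 members (26% of all genes) and below them for 5 (33.2%). The median log2 fold change was 0.06, against 0.03 for all genes.

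The 3 largest increases were those of Ndufa4l2, Cox7a2l and Atp5g2. Ndufa4l2 (chr10:127514967-127517154, + strand) was at 1.98, 1.81, 1.34, 2.52 and 2.12 normalised CPM in tumours and 0.670, 1.11 and 1.13 in WT (log2 fold change 1.10, SE 0.29, adjusted p = 0.009103). Cox7a2l (chr17:83501918-83517330, - strand), a Cox7a-related factor that joins complexes III and IV, was at 164, 129, 144, 177 and 164 against 111, 89.4 and 80.3 (log2 fold change 0.84, SE 0.14, adjusted p = 0.00117). For both genes every tumour lay above every WT library, and both remained called in all 8 fits that left out a library.

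Atp5g2 (chr15:102662864-102672352, - strand) is 1 of 3 genes for subunit c, the proton-carrying ring of ATP synthase. Its level was 84.0, 61.6, 74.3, 88.3 and 79.3 normalised CPM in tumours and 51.5, 47.7 and 44.2 in WT (log2 fold change 0.80, SE 0.13, adjusted p = 0.000793). All tumours were above all WT libraries, and 39.7% of the gene's 36-base words occur in other genes. The accessory complex I genes Ndufa7 (0.79) and Ndufa2 (0.56) also rose.

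Cox7a1 was at 23.1, 5.25, 34.5, 18.6 and 11.3 normalised CPM in Apcfl/+ tumours and 64.2, 39.0 and 41.9 in WT small intestine. The tumour libraries spread widely and all lay below WT (log2 fold change -1.27, SE 0.49, adjusted p = 0.04895), with the call kept in 2 of 8 fits that left out a library. Cox6b2, the testis isoform of subunit 6b, was at 1.79, 2.55, 1.87, 1.28 and 1.43 against 4.79, 3.01 and 3.83 (log2 fold change -1.02, SE 0.26, adjusted p = 0.008426), again with no overlap.

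Tumour replicate 2 weighed on this count, as without it 27 members rose and 4 fell. The share of all genes called in that fit is not given. The length correction gave 2 higher and 51 lower with a median of -0.43. Ribosomal protein genes, which are also short, rose in 75 of 76 cases. The length correction was fitted without them, without the members and without the genes of the lists. The 12 mitochondrially encoded genes had 6 lower. Small intestinal enterocyte markers fell in 4 of 8 cases (summed level 46.4 to 8076 normalised CPM in tumours and 16670 to 26345 in WT), as did smooth muscle markers, while stromal and neutrophil markers rose in 7 of 8 each. Their part in the members' levels was not tested.

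The difference between the tumour types was tested as an interaction, since the comparisons share no library. The log2 fold change was lower in BA than in Apcfl/+ tumours for 36 members and higher for 0, where 17.7% of 21668 genes were called in that direction, 21.9% in the other and 39.7% in either, with a median difference in log2 fold change of -1.10 against 0.05 for all genes. The named differences were those of Cox4i2 (-1.57, SE 0.58, adjusted p = 0.04469), Cox5b (-1.38, SE 0.42, adjusted p = 0.01932) and Uqcrb (-1.37, SE 0.37, adjusted p = 0.01115). Cox4i2 was called in neither tumour comparison alone, and its counts ranged from 1 to 96 reads over all libraries. Cox7a1 had a difference of -1.47 that did not pass the test (adjusted p = 0.1775), and that of Ndufa4l2 was 0.07. In all, 72 of 74 members had the lower estimate in BA tumours. Without BA tumour replicate 2 the number of calls was 72, with no share over all genes given beside it. The tumours also differ in gut region and background, which cannot be told apart from genotype.

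**Figure D2:**
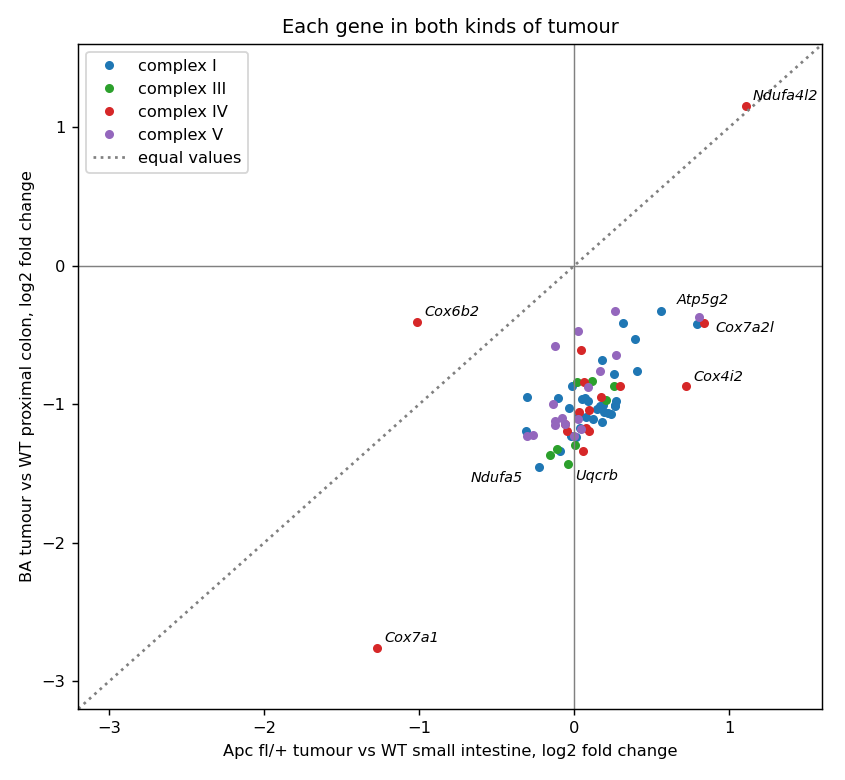
Log2 fold change of each of the 74 genes in Apcfl/+ tumours against WT small intestine (x axis) and in BA tumours against WT proximal colon (y axis), coloured by complex; the dotted line marks equal values. Most genes lie near 0 on the x axis and near -1 on the y axis, Cox7a1 lies at -1.27 and -2.76, and Ndufa4l2 at 1.10 and 1.16.

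In BA proximal colon at d30 the decrease was small and extended over most members. Relative to WT d30, 51 of 74 fell and 2 rose, where 29.3% of 17471 genes were called lower, 25.8% higher and 55.1% in either direction. The median log2 fold change was -0.29, or 81.7% of the WT level, against -0.03 for all genes. All BA libraries lay below all WT libraries for 37 members (22.9% of all genes) and above them for 2 (22.5%). By complex, 29 of 33 complex I genes, 7 of 8 complex III genes, 8 of 16 complex IV genes and 7 of 17 complex V genes fell.

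Cox7a1 again had the largest decrease, with 10.7, 12.8, 13.2, 9.40 and 10.8 normalised CPM in BA and 22.2, 52.5, 27.8 and 29.7 in WT. The BA libraries were close together and all were below WT (log2 fold change -1.55, SE 0.22, adjusted p = 0.0001473). Leaving out each library gave -1.71 to -1.24, with the call kept in 9 of 9 fits.

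Cox5b (chr1:36691449-36693681, + strand), a zinc-binding subunit of complex IV, was at 136, 122, 116, 104 and 136 normalised CPM in BA and 180, 220, 175 and 180 in WT. No BA library reached the lowest WT library (log2 fold change -0.63, SE 0.10, adjusted p = 0.000232). Cox4i1 was at 546, 486, 558, 501 and 581 against 718, 848, 724 and 755 (log2 fold change -0.52, SE 0.08, adjusted p = 0.0001906), also without overlap.

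In complex I the accessory subunit Ndufb10 (chr17:24722060-24724478, - strand) fell from 116, 154, 115 and 121 normalised CPM in WT to 83.7, 78.7, 84.5, 78.8 and 90.5 in BA (log2 fold change -0.62, SE 0.09, adjusted p = 0.0001912). WT replicate 2 was the highest WT library for both Cox5b and Ndufb10. Core subunits moved with it, such as Ndufs1 (-0.42) and the flavoprotein Ndufv1 (-0.47). In complex III the largest decrease was that of the Rieske protein Uqcrfs1 (-0.60). In complex V the catalytic α subunit Atp5a1 (-0.15) and all 3 c-ring genes (-0.34 to -0.13) did not pass the test. Atp5h (-0.36), a peripheral stalk subunit, had the largest decrease called.

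Both members that rose at d30 were exceptions within their complexes. Ndufa4 (chr6:11900292-11907497, - strand), first described with complex I and since placed with complex IV, was at 114, 107, 110, 137 and 130 normalised CPM in BA and 84.9, 81.9, 65.7 and 70.5 in WT. Every BA library was above every WT library (log2 fold change 0.65, SE 0.10, adjusted p = 0.0002332). Ndufs4 (chr13:114287795-114388258, - strand), an accessory subunit near the NADH-oxidising module, was at 104, 110, 105, 104 and 124 against 87.0, 99.7, 86.0 and 88.6 (log2 fold change 0.26, SE 0.07, adjusted p = 0.009101). The groups did not overlap, and both genes remained called in 9 of 9 fits that left out a library. Ndufs4 lost its call when all 5 d30 groups were fitted together (0.27, adjusted p = 0.1679) and with library totals (0.11, adjusted p = 0.195), while Ndufa4 kept its call in both.

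**Figure D3:**
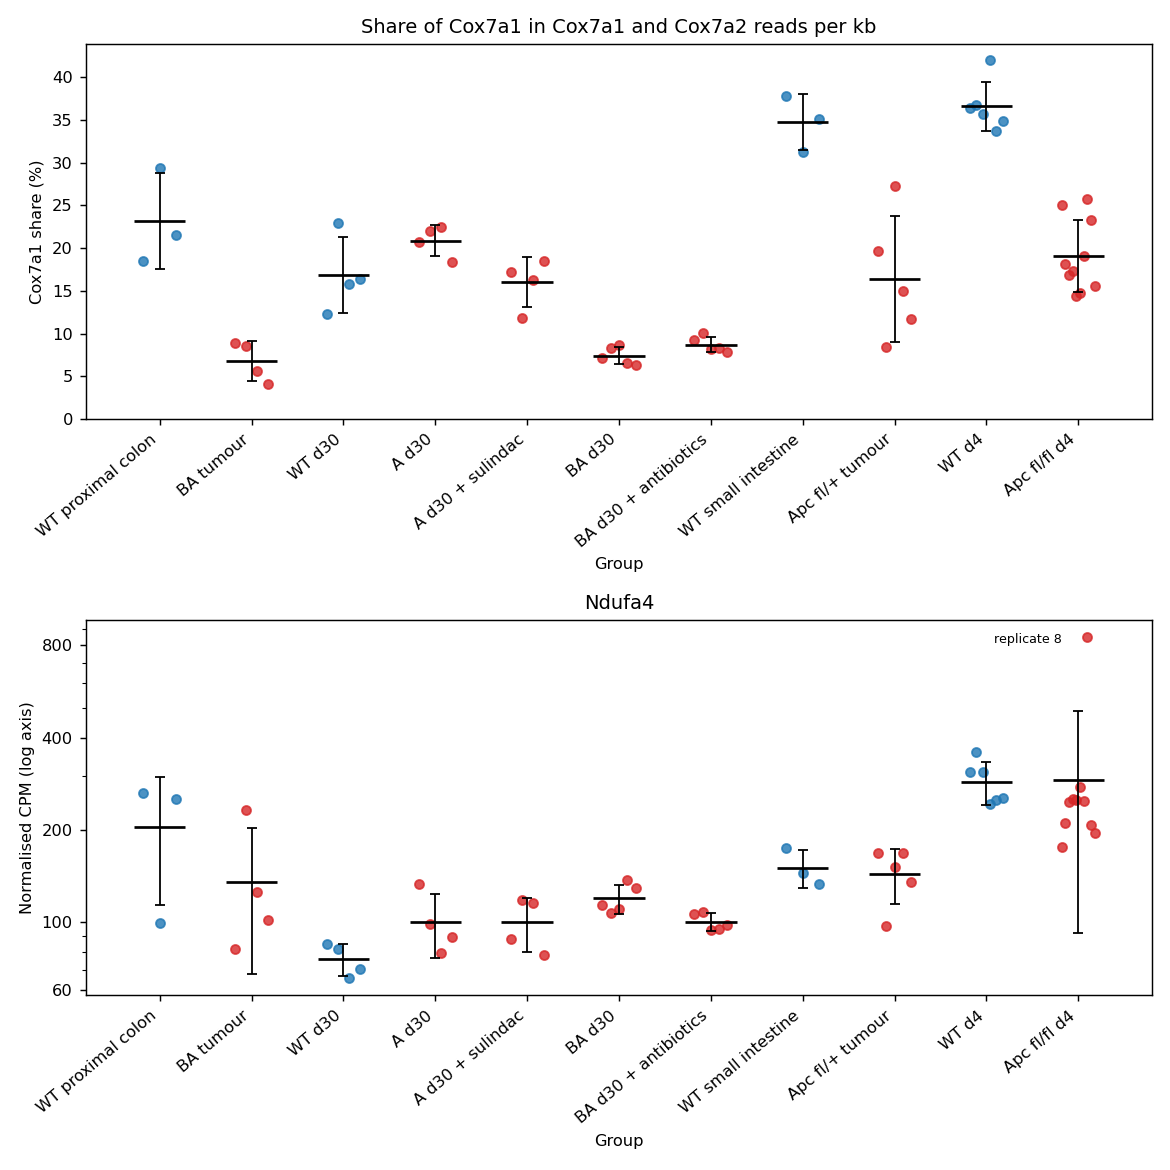
Top, share of Cox7a1 in the reads per kilobase of Cox7a1 and Cox7a2 in each library (%); bottom, normalised CPM of Ndufa4 on a log axis; points are libraries (WT blue, others red), bars are means and whiskers 1 SD. The Cox7a1 share is 6.31 to 8.69% in BA d30 and 12.2 to 22.9% in WT d30, and Ndufa4 is higher in all 5 BA d30 libraries than in the 4 WT d30 libraries.

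Under scaling by library totals alone, the all-gene median in this comparison moved to -0.18 and the members' median to -0.44, a difference of -0.27, and higher calls made up 30.31% of all calls in place of 46.9%. When the 5 d30 groups were fitted together, 1 member rose and 14 fell, and the share of all genes called in that fit is not given. All 4 complex II genes fell (-0.51 to -0.31), with 12 of 16 genes of the tricarboxylic acid cycle and pyruvate dehydrogenase. Pdha1, a pyruvate dehydrogenase gene, rose (0.32). Of the 13 mitochondrially encoded genes 8 fell, with mt-Co1 at -0.60.

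Cell type markers moved at d30 as well. Epithelial markers rose in 9 of 10 cases (summed level 26614 to 30945 normalised CPM in BA and 13593 to 16245 in WT), smooth muscle markers fell in 6 of 8 (1024 to 4217 against 5232 to 6097) and neural or glial markers fell in 6 of 6. Of 8 striated muscle markers 3 were tested and 2 fell (6.16 to 18.3 against 21.6 to 35.6). Ribosomal protein genes rose in 47 of 76 cases. The part of these markers in the members' decrease was not tested.

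Of the 20 members lower in BA tumours, 17 were lower in BA d30, which is 85% of the former and 33.3% of the 51 lower at d30. Over the 16422 genes tested in both, 841 of 1059 genes lower in tumours were lower at d30, which is 79.4% of the former and 16.9% of the latter, so the share of members lower in tumours that were also lower at d30 was near that of all genes. The log2 fold change in tumours was below that at d30 for 16 members by the interaction test and above it for 1, where 6.46% of 20637 genes were called in the former direction, 9.87% in the latter and 16.3% in either (median difference -0.76, against 0.02 for all genes). The largest were Cox5a (-1.20, SE 0.24, adjusted p = 0.003494), Uqcrb (-1.19, SE 0.30, adjusted p = 0.0132) and Atp5g3 (-1.10, SE 0.22, adjusted p = 0.003335), and Ndufa4l2 differed the other way (1.42, SE 0.44, adjusted p = 0.0366). Cox5a was at 280, 300, 304, 269 and 320 normalised CPM in BA d30 and 282, 334, 287 and 270 in WT d30, so these groups overlapped. Without BA tumour replicate 2, 69 were below the d30 value and 1 above, again without a share over all genes. The WT groups of these comparisons also differed from each other. The mean share of Atp5g3 per kilobase among Atp5g1, Atp5g2 and Atp5g3 was 61.7% in WT proximal colon and 94.0% in WT d30. A difference between the sets of libraries cannot be told apart here from that between tumour and d30.

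Loss of Alk5 alone gave no member that passed the test. In A d30 against WT d30, 0 of 74 members were called, where 0.096% of 17713 genes were called higher, 0.0452% lower and 0.141% in either direction. Ndufs1 was the 1 member whose A libraries all lay below WT, where 2.21% of genes did so and 2.48% lay above. At an unadjusted p under 0.05 there were 2 members, Ndufa4 (0.41) and Ndufs1 (-0.24), and DESeq2 called 0. The median log2 fold change was 0.22 against 0.01 for all genes, and it was 0.03 without A replicate 1, whose members summed to 23136 normalised CPM against 13406 to 18005 in the other 3. Cox7a1 was at 67.2, 54.1, 37.7 and 34.7 in A, overlapping with WT.

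The comparison of BA d30 with A d30 concerns groups that differ in the Braf allele on an Alk5fl/fl background, and it shares its BA libraries with the comparison above. Here 46 members fell and 0 rose, where 23.6% of 17128 genes were called lower, 21.7% higher and 45.3% in either direction, with a median of -0.46 against -0.06 for all genes. All BA libraries lay below all A libraries for 12 members (16.2%, against 18% of all genes) and above them for 0 (18.1%). The calls comprised 27 complex I genes, 5 complex III genes, 7 complex IV genes and 7 complex V genes.

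Cox7a1 had a log2 fold change of -2.07 (SE 0.18, adjusted p = 1.117e-05), with every BA library below every A library. Cox5b was at 311, 236, 160 and 204 normalised CPM in A and 104 to 136 in BA (-0.87, SE 0.16, adjusted p = 0.001166). Ndufb10 was at 214, 160, 106 and 136 in A and 78.7 to 90.5 in BA (-0.87, SE 0.15, adjusted p = 0.001021). Neither pair of groups overlapped, although A replicate 1 was the highest for both genes.

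Ndufa4 and Ndufs4 did not pass the test against A. The A libraries held 134, 98.5, 79.2 and 89.2 normalised CPM of Ndufa4 and 150, 109, 75.2 and 93.2 of Ndufs4, a range that includes most BA values, with log2 fold changes of 0.28 and 0.06. Without A replicate 1, 29 members fell and 1 rose, without A replicate 2, 16 fell, and without BA replicate 4, 18 fell. With library totals the all-gene median was -0.28, the members' median lay a further -0.40 from it, 71 fell, and higher calls were 24.7% of all calls in place of 48.0%. Epithelial markers rose in 9 of 10 cases here too, and 3 of 8 smooth muscle markers fell. Of the small intestinal markers, Anpep (-3.13), Mttp (-2.84) and Apoa4 (-3.62) fell, while Alpi (0.72) and Fabp2 (0.61) rose. The A libraries varied widely for Anpep, with a mean of 115.9 normalised CPM (SD 133.8) against 12.87 in BA. The adipocyte marker Cfd fell as well (-4.18), while Pck1 and Cidec were not called. The part of these markers in the members' levels was not tested.

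Antibiotic treatment of BA mice moved the members little, although 66 of 74 estimates were positive, against 9107 of 16680 over all genes. Against untreated BA d30, 0 rose and 1 fell, where 4.53% of 16680 genes were called higher, 8.5% lower and 13% in either direction, with a median log2 fold change of 0.11 against 0.03 for all genes. The member called was Ndufa4, at 106, 108, 94.0, 95.0 and 98.1 normalised CPM with antibiotics and 107 to 137 without (log2 fold change -0.25, SE 0.07, adjusted p = 0.0473). Antibiotic replicate 2 lay above the lowest untreated library, and the call was kept in 2 of 10 fits that left out a library. No member separated the groups, where 3.33% of genes lay higher and 7.37% lower without overlap. No member was called when any of BA replicates 1, 3 or 4 or antibiotic replicates 1, 4 or 5 was left out. Without antibiotic replicate 3, 6 members rose and 0 fell. With library totals 11 rose and 0 fell, and higher calls over all genes were 51.4% in place of 34.8%. No stromal marker was called, and several varied widely with antibiotics. Col1a1 had a mean of 455 normalised CPM (SD 586), Dcn 416 (SD 529) and Lum 88.1 (SD 132), while Pdgfra varied less (84.4, SD 15.2). The part of these markers in the members' levels was not tested.

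Relative to WT d30, BA mice on antibiotics had 15 members lower and 1 higher, where 17.8% of 17569 genes were called lower, 21.8% higher and 39.6% in either direction. The median was -0.15 against 0.01 for all genes, and 10 members lay below WT in all libraries (13.5%, against 15.4% of all genes) and 1 above (17.4%). The WT libraries are those of the other d30 comparisons.

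Cox7a1 was at 18, 20.5, 11.6, 14.1 and 13.4 normalised CPM with antibiotics, below all WT libraries (log2 fold change -1.09, SE 0.25, adjusted p = 0.005758). Cox6b2 was at 2.00, 2.18, 4.28, 2.19 and 3.45 against 4.94, 5.45, 5.35 and 5.05 in WT (-0.86, SE 0.25, adjusted p = 0.01938), and Cox4i1 at 581, 690, 462, 514 and 527 (-0.45, SE 0.11, adjusted p = 0.007751). Neither overlapped with WT. Ndufa4 remained above WT in every library (0.41, SE 0.09, adjusted p = 0.004023). Without antibiotic replicate 2, 27 fell and 1 rose, and without antibiotic replicate 4, antibiotic replicate 5 or WT replicate 2, 7 fell and 1 rose in each case. With library totals 43 fell and 1 rose, and higher calls over all genes were 39.9% in place of 55.0%. Epithelial markers rose in 9 of 10 cases and smooth muscle markers had 0 of 8 called.

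Sulindac, a non-steroidal anti-inflammatory drug, gave no detectable change in A mice at d30, after its 14 days of treatment had ended. Of 74 members 0 were called, 0 reached an unadjusted p under 0.05 and DESeq2 called 0, where 0% of 17568 genes were called and 460 reached an unadjusted p under 0.05. No member separated the groups, where 0.592% of genes lay higher and 1.21% lower without overlap. The median was 0.00 against 0.01 for all genes. Cox7a1 was at 33.6, 21.1, 49.2 and 37.2 normalised CPM with sulindac, and Ndufa4 at 88.0, 118, 116 and 78.2, both within the range of untreated A or overlapping with it.

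In the small intestine 4 days after Apc loss, 1 member rose and 3 fell, where 27.5% of 17536 genes were called higher, 26.7% lower and 54.2% in either direction, and the members and all genes both had a median of 0.00. The groups did not overlap for 1 member, lower with Apc loss, where 10.3% of genes lay lower and 6.55% higher without overlap. Atp5g2 rose, from a lowest of 8.54, a median of 12.3 and a highest of 15.4 normalised CPM in 6 WT libraries to 3.19, 17.0 and 50.9 in 10 Apcfl/fl libraries (log2 fold change 0.92, SE 0.35, adjusted p = 0.03208). The groups overlapped, and the lowest Apcfl/fl value came from replicate 1, the library of 516985 counts.

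The decreases were in transcripts longer than the members' median of 731 bases. Uqcrc2 had 389, 465 and 570 (lowest, median and highest) in WT and 315, 329 and 496 in Apcfl/fl (log2 fold change -0.38, SE 0.14, adjusted p = 0.03031). The α subunit gene Atp5a1 had 1932, 2160 and 2555 against 1459, 1708 and 1912, with no overlap (-0.35, SE 0.12, adjusted p = 0.02168). Ndufs1 had 175, 210 and 256 against 109, 169 and 210, with overlap (-0.32, SE 0.12, adjusted p = 0.03126).

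Apcfl/fl replicate 8 held the highest value of Cox7a1 (171), Atp5g2 and Uqcrc2 and the lowest of Ndufs1. Without it 56 members fell and 1 rose, with a median of -0.38, and the share of all genes called in that fit is not given. Without replicates 1 and 8 together, 54 fell and 1 rose. Without WT replicates 1, 2 or 3 there were 1, 1 and 0 calls. With library totals the all-gene median moved to 0.27 and the members lay -0.08 from it, with 71.0% of all calls higher in place of 50.7%.

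Cox7a1 did not pass the test at d4 (log2 fold change -1.00, SE 0.46, adjusted p = 0.07273), with 67.6, 92.4 and 114 normalised CPM in WT and 18.1, 29.9 and 171 in Apcfl/fl. Without replicate 8 its log2 fold change was -1.75 and the call was made. At this time small intestinal enterocyte markers fell in 8 of 8 cases and vascular or pericyte markers in 6 of 8, while smooth muscle markers had 0 of 8 called. Ribosomal protein genes rose in 72 of 76 cases.

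The change in Apcfl/+ tumours differed from that at d4 for 2 members, where 12.4% of 22202 genes were called higher, 12.3% lower and 24.7% in either direction. Ndufa4l2 (difference 1.37, SE 0.43, adjusted p = 0.02393) and Cox4i2 (1.36, SE 0.48, adjusted p = 0.03957) were relatively higher in the tumours, and without Apcfl/fl replicate 8 there were 21 such members and 0 in the other direction. Cox4i2 was called in neither comparison alone, and its counts were low (1 to 96 reads per library). Scaling by relative log expression moved the all-gene median difference to -0.16 and library totals moved it to -0.24, with 1 and 0 members called, and higher calls over all genes went from 50.3% to 37.8% and 30.53%. These comparisons differ in strain background and in set of libraries, which cannot be told apart from time and tissue state. The mean share of Atp5g3 per kilobase among Atp5g1, Atp5g2 and Atp5g3 was 74.6% in WT small intestine and 95.55% in WT d4.

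Within-library ratios of paralogues are less exposed to the scaling of a library. The share of Cox7a1 in the sum of Cox7a1 and its ubiquitous counterpart Cox7a2, per kilobase of transcript, was computed in each library, as 1 of 63 tests over 7 shares and 9 comparisons chosen after the data were seen. In Apcfl/fl d4 it ran from 14.4 to 25.8% and in WT d4 from 33.7 to 42.0%, replicate 8 included, with no overlap (two-sided exact permutation test, p = 0.0002498, the smallest possible, adjusted p = 0.01573).

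The same share was 4.05 to 8.95% in BA tumours against 18.5 to 29.4% in WT proximal colon (exact permutation p = 0.05714, the smallest that 4 against 3 allows, adjusted p = 0.18). It was 8.38 to 27.3% in Apcfl/+ tumours against 31.3 to 37.8% in WT small intestine (exact permutation p = 0.03571, the smallest possible, adjusted p = 0.1607). In BA d30 it was 6.31 to 8.69% against 12.2 to 22.9% in WT d30 and 18.4 to 22.5% in A d30 (exact permutation p = 0.01587 for each, adjusted p = 0.1111). In each of these the groups did not overlap, and among the 63 tests only that at d4 passed after adjustment.

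With antibiotics the Cox7a1 share was 7.82 to 10.0% in BA mice, below all WT libraries (exact permutation p = 0.01587, adjusted p = 0.1111). A d30 had a mean share of 20.9% ± 1.84 (SD, n = 4) and WT d30 16.8% ± 4.45 (SD, n = 4), which differed by less than the test could show (exact permutation p = 0.1714). With sulindac the share was 16.0% ± 2.92 (SD, n = 4) against 20.9% in untreated A (exact permutation p = 0.05714, adjusted p = 0.18).

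Among the 3 subunit c genes, the share of Atp5g2 was 28% in Apcfl/+ tumours and 15.8% in WT small intestine (exact permutation p = 0.03571, adjusted p = 0.1607), and 3.08% in Apcfl/fl d4 and 1.44% in WT d4 (exact permutation p = 0.006743, adjusted p = 0.1111). The level of Atp5g2 itself differed between sets of libraries, with 108 to 151 normalised CPM in WT proximal colon and 8.88 to 16.2 in WT d30 proximal colon. The cause of that difference was not tested.

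**Figure D4:**
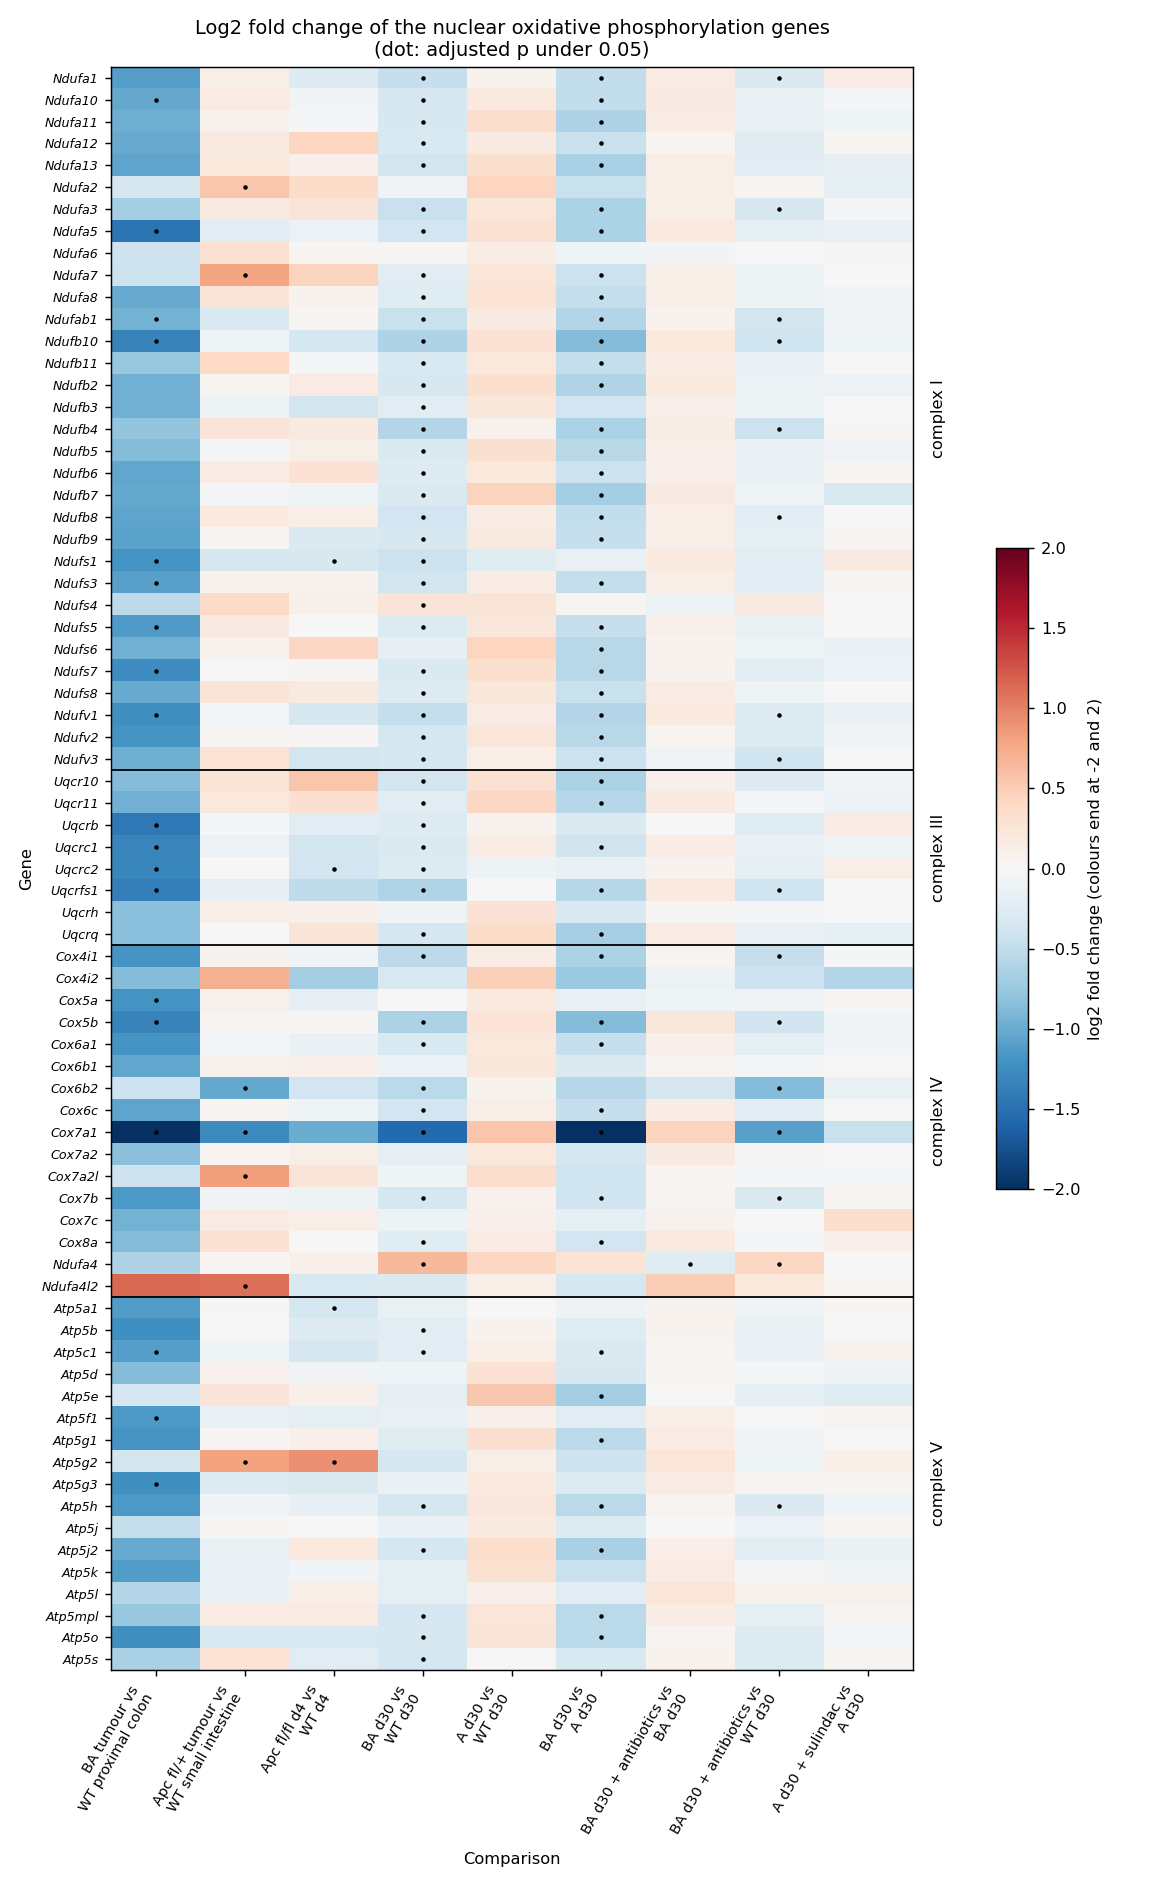
Log2 fold change of 73 of the 74 genes (y axis, by complex) in the 9 comparisons (x axis), blue for lower and red for higher, with colours ending at -2 and 2; dots mark adjusted p under 0.05. The column of BA tumours is blue for every gene drawn but Ndufa4l2, that of BA d30 against WT holds dots in all 4 complexes, and those of A d30 and of sulindac hold 0 dots.

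Across all 53 libraries the members' summed level moved with that of ribosomal protein genes in the libraries that stood apart. A d30 replicate 1 and A with sulindac replicate 3 had the highest sums of both in their groups, with 23136 and 22935 normalised CPM of members. Their part in the comparisons of A was not tested. BA d30 libraries held 11797 to 15019 normalised CPM of ribosomal protein genes and WT d30 9306 to 11458, so the members' decrease at d30 came with a higher ribosomal protein level.

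**Figure D5:**
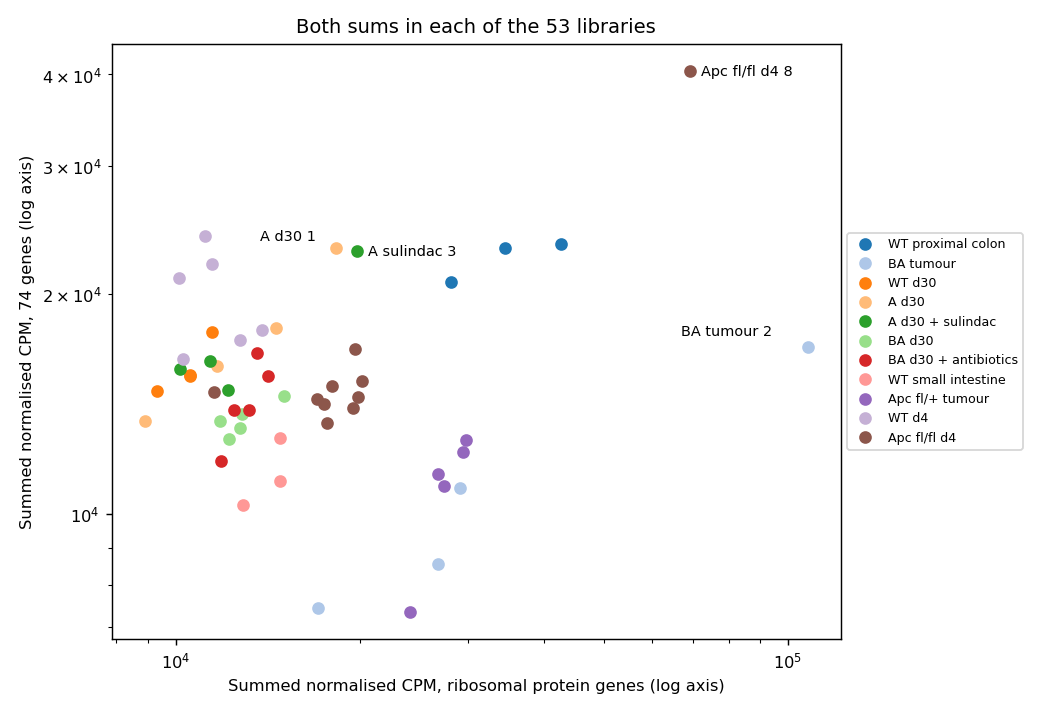
Summed normalised CPM of the ribosomal protein genes (x axis, log) and of the 74 genes (y axis, log) in each library, coloured by group. Apcfl/fl d4 replicate 8 (69204 and 40437) and BA tumour replicate 2 (107790 and 16938) lie far to the right of their groups.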

How the data were processed

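The deposited table held raw counts per Ensembl gene for 53 libraries, made by the authors from RNA prepared with a TruSeq RNA kit that does not mark strand and sequenced as paired reads. Processing notes of the submitters name FastQC 0.11.8, Trim Galore 0.6.4, HISAT2 2.1.0 and featureCounts 1.6.4 with GRCm38. Without strand, a gene and an overlapping antisense gene cannot be told apart. Symbols, positions and lengths came from GENCODE M21, which named 55240 of 55421 genes.

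Each comparison was fitted on its own groups with edgeR 4.0.16 (R 4.3.3; filterByExpr, TMM, glmQLFit and glmQLFTest, two-sided), with Benjamini-Hochberg adjustment over all genes tested and a threshold of 0.05. Differences between comparisons were interaction terms. Alternatives were relative log expression (RLE) scaling, library totals, DESeq2 1.42.0, no low-count filter, a replicate block, all 5 d30 groups in 1 fit and leaving out each library. A per-library offset for transcript length, joint removal of Apcfl/fl replicates 1 and 8, the interactions without a library and the paralogue shares were added after seeing the data. Shares were tested by exact permutation over samples. Named genes were the 3 largest called changes in each direction, and paralogues. Genes outside that rule were named after their values were seen. The members and lists were chosen with earlier results of these data known. No library pair among 120 within groups was identical. Depth ranged from 516985 to 32824795 counts, so the precision of low members was limited most in the smallest library. Some genes of the family are not reported here by name.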

Additional observations from a re-analysis of the deposited data

Results flagged for a closer look

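Among 56 sets of values searched for a library far from its group (where chance alone finds about 1 in 20), 9 were found. The median of the members on the log2 scale was 8.613 in Apcfl/fl d4 replicate 8, 7.519 in A with sulindac replicate 3 and 6.108 in Apcfl/+ tumour replicate 2. Apcfl/fl d4 replicate 8 was also far from its group for Cox7a1 (171.1 normalised CPM), Uqcrc2 (495.5) and Ndufs1 (108.6), the latter on the low side. BA tumour replicate 2 was far from the other tumours for Cox7a1 (23.78). WT d30 replicate 2 was far from the other WT d30 libraries for Cox5b (219.7) and Ndufb10 (153.5). The causes were not tested.

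Effects differed between comparisons by the interaction tests for 36 of 74 members between BA and Apcfl/+ tumours, where 39.7% of all genes were called, for 17 between BA tumours and BA d30, where 16.3% were called, and for 2 between Apcfl/+ tumours and Apcfl/fl d4, where 24.7% were called.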

How the results depend on the processing

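Counts in this section are of members. Here and above, the shares of all genes called in the other fits are not given, so these counts have no background. In BA tumours, which had 20 calls, library totals gave 42, DESeq2 38, no low-count filter 46 and the length offset 52. In Apcfl/+ tumours, with 7 calls, library totals gave 13 and the length offset 53 with a median of -0.43. At d4, with 4 calls, DESeq2 gave 35, the length offset 38 and removal of Apcfl/fl replicates 1 and 8 gave 55. BA d30 against WT went from 53 to 15 with all 5 d30 groups in 1 fit, and its median was -0.44 with library totals. BA d30 against A d30 went from 46 to 71 with library totals. Antibiotics against BA had 1 call in the fit reported, 11 with library totals, 2 with DESeq2 or the length offset, and 0 with RLE, no filter or all d30 groups. Antibiotics against WT went from 16 to 44 with library totals, 39 with the length offset and 8 with all d30 groups. Between tumour types 36 became 59 with library totals, between BA tumours and BA d30 17 became 26 without the filter, and between Apcfl/+ tumours and d4 2 became 1 with RLE or without the filter, 0 with library totals and 5 with DESeq2. The cause was not tested.

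Same-numbered libraries did not deviate together in every pair, so the numbers were not taken to pair them. With a replicate block the calls were 1 in BA tumours, 3 in Apcfl/+ tumours, 37 at d4 and 0 for antibiotics against BA.

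Leaving out each library gave 2 to 69 calls in BA tumours (median -1.47 to -0.84), 6 to 31 in Apcfl/+ tumours (median -0.0046 to 0.17), 0 to 57 at d4 (median -0.38 to 0.06), 40 to 55 for BA d30 against WT (median -0.33 to -0.23), 0 to 0 for A (median 0.03 to 0.35), 16 to 62 for BA d30 against A (median -0.56 to -0.30), 0 to 6 for antibiotics against BA (median 0.05 to 0.16), 8 to 28 against WT (median -0.24 to -0.10) and 0 to 0 for sulindac (median -0.16 to 0.15). Without BA tumour replicate 2 the difference between tumour types had 72 calls (median -1.62) and that between BA tumours and BA d30 had 70 (median -1.08), and without Apcfl/fl replicate 8 that between Apcfl/+ tumours and d4 had 21 (median 0.44).

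Directions that reversed were those of genes not called in the reported fits. In Apcfl/+ tumours the length offset gave Ndufa4 -0.55, Cox6b1 -0.50, Cox4i1 -0.42 and Cox7a2 -0.47. At d4 DESeq2 gave Ndufa4 -0.31, Cox6b1 -0.34, Atp5g1 -0.34 and Cox8a -0.49, the replicate block Atp5g1 -0.42 and Cox8a -0.45, the length offset Ndufa4 -0.22 and Cox8a -0.36, removal of replicate 8 Ndufa4 -0.32, Cox6b1 -0.34, Atp5g1 -0.36 and Cox8a -0.50, and removal of replicates 1 and 8 Ndufa4 -0.24, Cox6b1 -0.33, Atp5g1 -0.27 and Cox8a -0.44. Leaving out each library in turn gave Cox8a -0.50 to 0.072 at d4. Over the named genes, the Cox7a1 share and the alternatives, 2115 values stayed on their side of the threshold or within the spread, of which 117 changed sign without being called in either fit, 96 gained a call, 103 lost 1 and 20 reversed.

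Depth limited Cox4i2, Ndufa4l2 and Cox6b2 most, with medians of 20, 32 and 79 reads per library.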
